A study of Homo sapiens with 6 samples.

Results

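Chromatin accessibility was examined at 10 genes of leukaemia transcription factors, RUNX1, CBFB, MYB, MYC, ETV6, FLI1, LMO2, LYL1, NFE2 and ERG, out of 19974 protein-coding genes on chromosomes 1-22 and X. The genes were chosen by name. For each, the listed ATAC-seq peaks were taken within 1000 bp of either gene end (called gene-end peaks here), inside the gene, and within 50 kb of it, on build GRCh38. ATAC-seq marks open DNA by the insertion of sequencing adapters by a transposase. The material was U937, an established human monocytic cell line, in 6 libraries. In 3 control lines, control plasmids had been introduced, and in 3 independent clones, named ΔNSPs, the proteases ELANE, PRTN3 and CTSG had been depleted at the same time. All 6 lines were selected in geneticin, treated with DNase, washed and frozen in a medium with DMSO before ATAC-seq. Each clone is a single line, and how the proteases were depleted is not given in the sources used here. The comparison asks which sites at these genes are accessible with and without the proteases.

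These proteins set the identity of blood progenitors, and several were found through the chromosome translocations of leukaemia. RUNX1 binds DNA as a dimer with CBFB, which binds no DNA itself but stabilises the dimer, and RUNX1 is transcribed from a distal and a proximal promoter. MYB and MYC drive proliferation of immature myeloid cells. ETV6 (a repressor), FLI1 and ERG are ETS factors that recognise a GGAA core. LMO2 is an adaptor that joins GATA factors to bHLH factors such as LYL1, and NFE2 is a bZIP factor of erythroid cells and megakaryocytes that pairs with small MAF proteins. In progenitor cells the LYL1 promoter is known as a target of ETS and GATA factors, and the RUNX1 intron between the promoters is known to hold a blood enhancer.

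The promoter windows on which the results turn are printed here, since peaks of the clones met some of them and missed others. They come from RefSeq (GRCh38.p14), run 5′ to 3′ from 250 bases before a start to 30 bases after it, and match 5 of the 10 genes, with 8 windows. CBFB, MYC, FLI1, LMO2 and NFE2 were not matched. Capitals mark matches on either strand. The letters searched were TGTGGT for RUNX proteins, CGGAAG for the core bound by ETS proteins, AGATAA for proteins of the GATA family and TGANTCA for NFE2 dimers. Promoter elements searched were the CCAAT box, the GC box with letters GGGCGG, the MYC E-box with letters CACGTG, and the CREB element with letters TGACGTCA. The first window, on the minus strand at chr19:13102829-13103108, was touched by a peak in clones 1 and 3. The second, on the minus strand at chr21:34888670-34888949, was touched in clone 1. The third, on the minus strand at chr21:38660638-38660917, lay 68 bp from a clone 1 peak. The last, on the plus strand at chr6:135181058-135181337, was 13895 bp or more from any peak.
LYL1: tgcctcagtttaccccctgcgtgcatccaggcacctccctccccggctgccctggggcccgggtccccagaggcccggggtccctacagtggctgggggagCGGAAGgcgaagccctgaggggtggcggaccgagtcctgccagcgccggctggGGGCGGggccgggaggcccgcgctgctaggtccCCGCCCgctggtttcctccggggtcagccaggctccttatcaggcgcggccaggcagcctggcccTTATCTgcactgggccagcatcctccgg
RUNX1: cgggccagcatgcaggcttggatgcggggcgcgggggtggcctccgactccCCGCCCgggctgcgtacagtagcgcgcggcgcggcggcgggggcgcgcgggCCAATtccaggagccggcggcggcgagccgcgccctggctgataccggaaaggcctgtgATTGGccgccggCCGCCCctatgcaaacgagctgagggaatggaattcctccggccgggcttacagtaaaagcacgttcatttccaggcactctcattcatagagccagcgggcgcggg
ERG: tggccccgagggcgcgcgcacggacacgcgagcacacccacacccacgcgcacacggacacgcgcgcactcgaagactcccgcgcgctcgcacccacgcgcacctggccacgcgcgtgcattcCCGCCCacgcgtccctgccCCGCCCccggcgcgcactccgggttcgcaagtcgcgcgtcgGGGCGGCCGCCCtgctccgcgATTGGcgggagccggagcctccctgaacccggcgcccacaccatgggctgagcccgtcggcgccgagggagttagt
MYB: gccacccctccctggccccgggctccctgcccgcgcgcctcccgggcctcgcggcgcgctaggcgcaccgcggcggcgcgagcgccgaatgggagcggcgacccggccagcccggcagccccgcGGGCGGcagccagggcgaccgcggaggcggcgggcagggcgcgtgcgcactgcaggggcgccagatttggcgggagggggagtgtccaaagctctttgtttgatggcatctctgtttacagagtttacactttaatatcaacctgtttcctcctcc

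The LYL1 window held 1 ETS core match, at bases 102 to 107 counted from 1 at its 5′ end, and 1 GATA match, at bases 253 to 258. It also held 2 GC boxes. Over the 22132 promoter windows of protein-coding genes, 22.9% held the ETS core, 7.64% the GATA letters and 55.3% a GC box. The RUNX1 window held 2 CCAAT boxes, found in 34% of windows, and 2 GC boxes. The ERG window held 4 GC boxes and 1 CCAAT box, and the MYB window 1 GC box. None of the 4 held the RUNX, NFE2, MYC E-box or CREB letters, which 10.6, 5.93, 8.05 and 2.26% of windows held. The loosely defined MYB motif, with letters AACNG, was in 73.3% of all windows, and the general E-box, with letters CANNTG that also cover the MYC E-box, in 62.6%, so neither was put in capitals. A match is a run of letters, not evidence that a factor bound there. The shorter GGAA core was not searched on its own, so lower-case stretches of any window may hold it. The 4 printed windows were rich in G and C, with 73.9% at LYL1, 70.4% at RUNX1, 76.4% at ERG and 71.8% at MYB against a median of 62.1%. CpG pairs numbered 20 at LYL1, 35 at RUNX1, 48 at ERG and 34 at MYB, against a median of 19. Of the windows not printed, that of ETV6 had 71.1% G and C. The unprinted ERG windows had 44.3, 45.7 and 37.9%, with 4, 3 and 3 CpG pairs. Those with 44.3 and 45.7%, which overlap each other, also held the GATA letters.

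Only the presence of a listed peak could be compared, since a list gives no value where it has no peak. Clones 1, 2 and 3 had 14262, 24981 and 2188 peaks on chromosomes 1-22, X and Y, and control lines 1, 2 and 3 had 13, 4 and 2. The group means differed by 3.19 on the log10(peaks + 1) scale (exact two-sided permutation p = 0.1, n = 3 per group), the smallest p that 3 against 3 allow. A control peak within 50 kb was present at 14, 2 and 3 of the 19974 genes (0.0701, 0.01 and 0.015%) in control lines 1, 2 and 3. The lack of control peaks described below is therefore shared by nearly all genes and says little about these 10. Read totals were not given, so depth is unknown. The lowest −log10 q in each clone list was 2, and the lowest −log10 p listed was 4.89, 4.86 and 5.75 in clones 1, 2 and 3, against 7.77, 8.07 and 8.9 for the 3 control lines. Nothing in the labels says that lines were grown or processed in batches, so a batch that followed the groups cannot be told apart from them.

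LYL1 was the single gene of the 10 called, that is, with gene-end peaks in 2 or more clones and in no control line, against 23.3% of all protein-coding genes by the same rule. It had one in all 3 clones, a pattern held by 5.4% of genes. RUNX1, LMO2 and NFE2 had a gene-end peak in clone 2 alone and MYC in clone 1 alone, so 5 of the 10 genes had one in any clone, against 46.6% of all genes. CBFB, MYB, ETV6, FLI1 and ERG had none in any library. By clone the counts were 2 of 10 in clone 1 (39.1% of all genes), 4 of 10 in clone 2 (29.6%) and 1 of 10 in clone 3 (6.55%). The median number of clones with a gene-end peak was 0.5 over the 10 genes and 0 over all genes. With 10 genes, each gene moves a share by 10 percentage points, and these counts single out no property of the group.

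**Figure D1:**
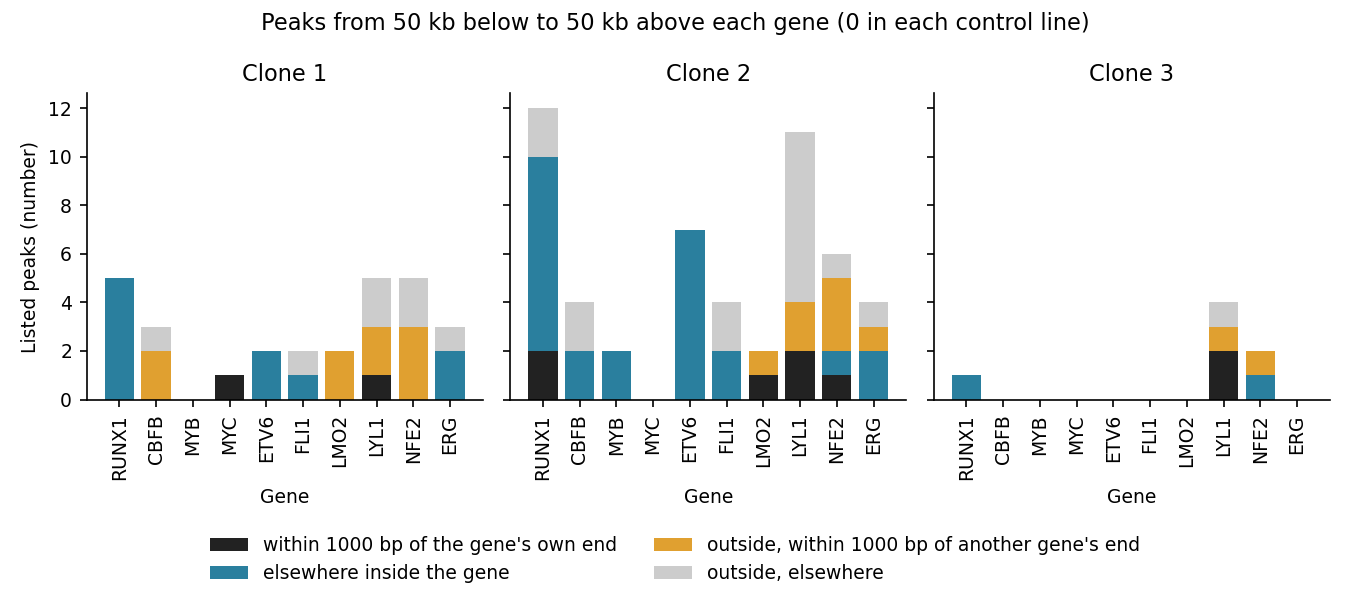
Number of listed peaks (vertical axis) from 50 kb below to 50 kb above each of the 10 genes (horizontal axis) in clones 1, 2 and 3, split by position; the 3 control lines had 0 at every gene. RUNX1, LYL1 and NFE2 are the genes with bars in all 3 panels, and the highest bar is RUNX1 in clone 2 with 12 peaks.

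In the wider windows the clones held 28, 52 and 7 peaks over the 10 genes, and the control lines none. At least 1 peak lay within 50 kb of 9, 9 and 3 of the 10 genes in clones 1, 2 and 3, against 70.5, 75.4 and 22.5% of all genes. Every clone had more peaks than any control line at 3 genes, RUNX1, LYL1 and NFE2, a separation found at 21.1% of all genes. The exact permutation p was 0.1 at each of these 3 (two-sided, n = 3 per group) and 0.4 or 1 at the other 7, so no gene could pass a threshold of 0.05. Clone 3 set this number: without it, 8 of the 10 genes had more peaks in both remaining clones than in any control line. The share of all genes under that rule was not counted, and the 21.1% does not apply to it. Clones 1 and 2 had a peak within 50 kb of 70.5 and 75.4% of all genes. The nearest control peak lay 7.12 to 39.2 Mb from RUNX1, CBFB, MYB, MYC and ERG, and chromosomes 11, 12 and 19, which carry the other 5 genes, had no control peak.

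LYL1, a bHLH factor of blood progenitors, is a short gene (3.83 kb; chromosome 19, 13099033 to 13102858, minus strand). A peak within 1000 bp of its start was listed in every clone and in no control line, and in clones 1 and 3 it covered the start itself. It ran from 13102805 to 13103287 in clone 1, from 13103151 to 13103342 in clone 2, whose edge lay 293 bp before the start, and from 13102841 to 13103328 in clone 3. Its fold enrichment, the authors' ratio of reads at the summit over the local background, was 6.30, 5.19 and 4.48 in clones 1, 2 and 3, above the median of each list (3.54, 4.16 and 3.35). The −log10 q was 13.57, 12.98 and 6.28. The pile-up that fold and p imply was 32, 38 and 26 reads over backgrounds of 4.24, 6.51 and 5.03 reads. The fold was at or above that of 98.4% of listed peaks in clone 1, 78.8% in clone 2 and 83.5% in clone 3. In clones 1 and 3 the best summit lay 171 and 172 bp before the start, and in clone 2 it lay 404 bp before it, outside the printed window by 43 bp at the peak's edge. The ETS core match of that window begins 149 bases before the start.

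A second gene-end peak of LYL1, near its 3′ end, was listed in clones 2 and 3. The folds there were 7.44 and 3.56, with −log10 q of 13.86 and 2.40, and the peak also lay within 1000 bp of the end of NFIX, a nuclear factor gene. Farther on, inside NFIX and 4.94 kb from LYL1, clone 2 had its highest fold at any of the 10 genes, 11.94 with a −log10 q of 26.69. That fold was at or above 99.9% of the clone 2 list. Clone 1 had a peak at the same site with a fold of 3.72 and a −log10 q of 5.43, and clone 3 had none. On the other side, a peak 1.46 kb beyond the LYL1 start was listed in all 3 clones, with folds of 3.97, 5.46 and 3.92, and lay within 1000 bp of the ends of TRMT1, a tRNA methyltransferase gene, and of the non-coding LOC105372282. Another at 49 kb, inside IER2, had folds of 2.89, 4.07 and 4.43. Clone 2 also had a peak where STX10 and IER2 meet, 47.4 kb away, with a fold of 5.90. In all, clones 1, 2 and 3 had 5, 11 and 4 peaks within 50 kb of LYL1 (mean 6.67 ± 3.79, SD, n = 3, against 0 in each control line; exact permutation p = 0.1). Per 100 kb this was 4.82, 10.6 and 3.85 peaks, against medians of 0.899, 1.08 and 0 over all genes. The neighbourhood holds 5 other protein-coding genes, so most of these peaks cannot be assigned to LYL1 from position alone.

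**Figure D2:**
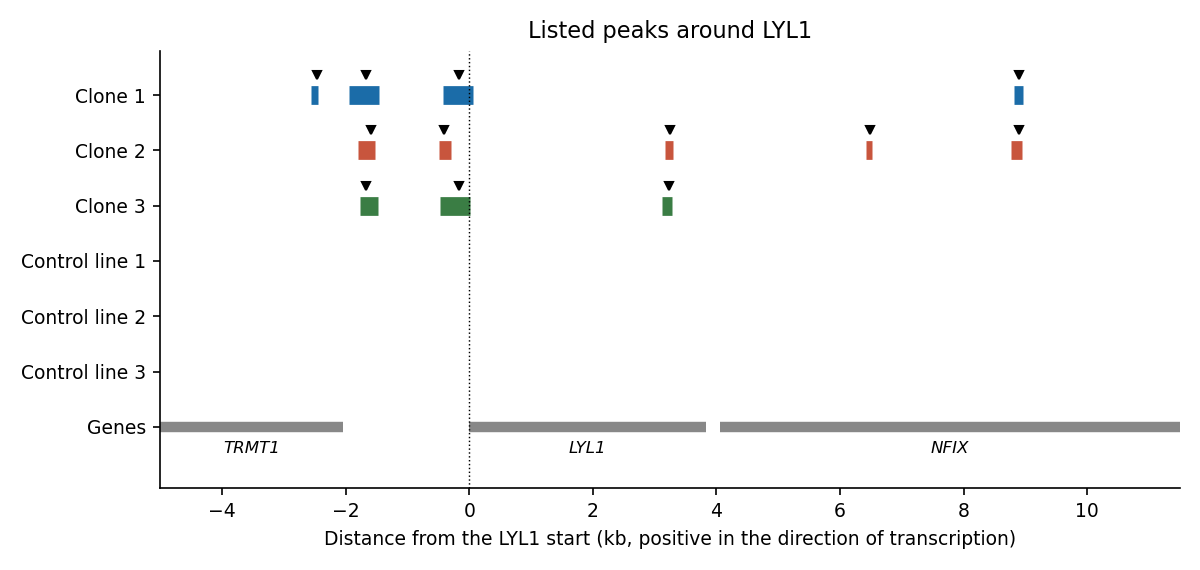
Listed peaks (coloured bars, drawn to width) and their best summits (triangles) in the 6 libraries by distance from the LYL1 start in kb, with protein-coding gene spans in grey. Clones 1 and 3 have a peak over the start, clone 2 has one 293 bp before it, all 3 have another 1.46 kb or more before it near TRMT1, and no control line has any.

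LMO2, the adaptor of the complex in which LYL1 takes part (33.5 kb; chromosome 11, 33858576 to 33892076), had 1 weak gene-end peak. It was listed in clone 2 alone, at 33892041 to 33892131, with a fold of 3.22 and a −log10 q of 2.06, just above the lowest value listed. Another peak lay 1.75 kb beyond that end, at 33893828 to 33894097, in clones 1 and 2. Its folds were 2.98 and 5.48 and its −log10 q 3.06 and 9.24. With a gene-end window of 2500 bp in place of 1000 bp, LMO2 was therefore also called. That peak overlapped the non-coding LOC105376621 and lay within 1000 bp of its end. Position alone cannot assign it to LMO2. Clone 1 had 1 more peak 20.6 kb away, near the non-coding LOC124902659, with a fold of 3.05. Clones 1, 2 and 3 had 2, 2 and 0 peaks within 50 kb (exact permutation p = 0.4, n = 3 per group).

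RUNX1, the DNA-binding subunit of core binding factor, spans 262 kb (chromosome 21, 34787801 to 35049302, minus strand). Clones 1, 2 and 3 had 5, 10 and 1 peaks inside it and 5, 12 and 1 within 50 kb (mean 6 ± 5.57, SD, n = 3, against 0 in each control line; exact permutation p = 0.1). Per 100 kb that was 1.38, 3.32 and 0.277 peaks, higher than at 60.7, 79.6 and 78% of all genes. In clone 3 that rank rests on 1 peak, since only 22.5% of all genes had any clone 3 peak within 50 kb. The clones differed widely, and most sites were not shared. Of 15 separate regions, 2 were found in more than 1 clone and 1 of them in all 3.

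The region of RUNX1 shared by all 3 clones lay at 35026809 to 35027062, inside the gene, 22.3 to 22.4 kb from its 5′ end and at -138 kb from the internal start printed above (negative before the start). Folds were 4.37, 3.54 and 3.47 in clones 1, 2 and 3, with −log10 q of 7.49, 3.86 and 4.37 and pile-ups of 27, 20 and 28 reads over backgrounds of 5.41, 4.93 and 7.37. It was the sole RUNX1 peak of clone 3. Fold in clone 2 was below the median of that list. Clones 1 and 2 shared a second region at 34908499 to 34908861, at -20.1 kb in clone 1, with folds of 5.04 and 3.33 and −log10 q of 11.57 and 3.78. Both regions lie between the 5′ end of the gene and the internal start. Whether either is the known enhancer of that intron was not tested.

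At the promoters of RUNX1 the clones did not share a peak. The gene's 5′ end carried 2 narrow peaks in clone 2, at 35048829 to 35048896 and 35049172 to 35049257, with folds of 3.75 and 2.74. Another clone 2 peak stood 2.09 kb outside, with a fold of 5.79 and a −log10 q of 17.99. Clone 1 had none of these. Instead, it had a 565 bp peak with 3 summits over the internal start, at 34888647 to 34889211, with a fold of 4.35 and a −log10 q of 5.31 (19 reads over 3.6). That peak covered the whole printed RUNX1 window, and 2 further peaks of clone 1 had summits at -0.829 and -1.25 kb. The nearest clone 2 peak, at 34888080 to 34888153, lay 517 bp from the window on the downstream side. It had a fold of 7.40, at or above 97.3% of that list, and a −log10 q of 11.18. Clone 3 had no peak within 137884 bp of the window. Downstream of the internal start, clone 2 had 4 more peaks, 1 of them outside the gene and 1 near RUNX1-AS1 with a fold of 3.68. Promoter windows were touched in 30.8, 20.8 and 4.67% of cases over all protein-coding genes in clones 1, 2 and 3, and 16.6% of windows were touched in 2 or more clones and no control line. Of the 8 windows at these genes, only that of LYL1 was touched in 2 clones, which is 1 of 5 genes against 20.9% of genes in the table.

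**Figure D3:**
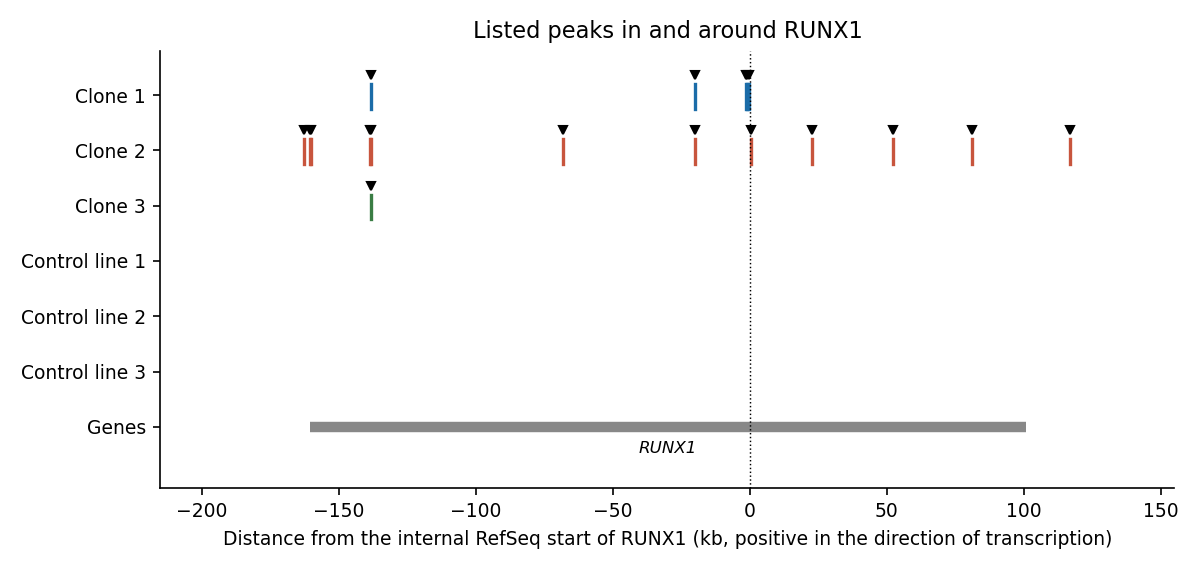
Positions of listed peaks (coloured ticks, width not to scale, triangles at the best summit) in the 6 libraries by distance in kb from the internal RUNX1 start, with the gene span in grey. The 3 clones coincide at -138 kb, while clone 1 alone covers the start itself and clone 2 alone has peaks at the 5′ end.

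CBFB, the partner subunit of RUNX1 (71.9 kb; chromosome 16, 67029149 to 67101058), had no gene-end peak. Inside it, clone 2 alone had 2 narrow peaks, 67 and 83 bp wide, with folds of 7.37 and 5.41 and −log10 q of 9.90 and 5.51. Their pile-ups were small, 18 and 14 reads over backgrounds of 1.58 and 1.77 reads. A region 10.9 kb outside the gene was shared by clones 1 and 2, with folds of 3.52 and 5.43. Peaks of clone 1 at the ends of PHAF1 and B3GNT9 had folds of 3.44 and 2.57. Clones 1, 2 and 3 had 3, 4 and 0 peaks within 50 kb (exact permutation p = 0.4, n = 3 per group).

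MYB, the proliferation factor of immature blood cells (37.9 kb; chromosome 6, 135181308 to 135219172, plus strand), had peaks in clone 2 only. They lay at 135195232 to 135195325 and 135195632 to 135195820, 14 and 14.5 kb inside the gene and within 1000 bp of the end of the non-coding gene LOC105378011. The folds were 4.90 and 3.09, the −log10 q 9.26 and 3.11. Clones 1 and 3 had no peak within 50 kb, and the exact permutation p was 1 (0, 2 and 0 peaks in clones 1, 2 and 3, n = 3 per group). The MYB start, with a window of 71.8% G and C, had no peak in any library.

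MYC, the bHLH factor that pairs with MAX (7.52 kb; chromosome 8, 127735434 to 127742951), had a single peak, in clone 1. It lay at 127735280 to 127735406, 28 bp beyond the lower gene end. It had a fold of 3.31, a −log10 q of 7.30 and a pile-up of 40 reads over 11.4. No other library listed a peak within 50 kb (1, 0 and 0 peaks in clones 1, 2 and 3; exact permutation p = 1, n = 3 per group). The fold was below the clone 1 median of 3.54, though the pile-up was above the median of 22.5 reads over the clone 1 peaks at these genes.

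The 3 ETS genes are long and had their peaks inside or outside the gene but none at a gene end. ETV6, the repressor (246 kb; chromosome 12, 11649674 to 11895377, plus strand), had 2, 7 and 0 peaks in clones 1, 2 and 3, all inside the gene. A region at 11855289 to 11855782, 206 kb past the start, was shared by clones 1 and 2, with best folds of 5.94 and 5.53 and −log10 q of 8.43 and 8.32. The clone 1 fold was at or above 97.3% of its list. Clone 2 also had 1 peak 1.28 kb past the start, with a fold of 4.58 from a pile-up of 9 reads over 1.18. The ETV6 start window itself, with 71.1% G and C, was not touched in any clone.

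FLI1 (128 kb; chromosome 11, 128685132 to 128813267), an ETS activator of the megakaryocyte lineage, had 1, 2 and 0 peaks inside and 2, 4 and 0 within 50 kb in clones 1, 2 and 3. The shared region inside FLI1, at 128695823 to 128696120, lay 10.9 kb from the lower end, at an end of the non-coding gene SENCR. Its folds were low, 2.31 and 3.04, but its pile-ups were the highest inside any of the 10 genes, 52 and 50 reads over backgrounds of 21.9 and 15.8. A second shared region, 18 kb outside the gene, had folds of 3.21 and 4.66 from 13 and 11 reads.

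ERG (295 kb; chromosome 21, 38367261 to 38661783, minus strand), an ETS factor of stem cells and endothelium, had 2, 2 and 0 peaks inside and 3, 4 and 0 within 50 kb. Clone 1 had a peak just past the most upstream of the 4 RefSeq starts in the table, at 38660329 to 38660570, with its summit 175 bp past that start, a fold of 3.54 and a −log10 q of 4.37. The summit was 1.29 kb from the gene's outer end. The nearer edge of the peak was also more than 1000 bp away, so the peak was not counted at the gene end. Clone 2 had a peak 139 kb above the lower end with a fold of 7.37 and a −log10 q of 9.90, at 18 reads over 1.58. Another clone 2 peak, 11 kb outside and near the non-coding LOC107985513, had a fold of 6.53. Clones 1 and 2 shared a region inside the gene (folds 2.80 and 4.08) and another 43.3 kb outside (2.99 and 3.11). At FLI1, ETV6 and ERG alike the exact permutation p for peaks within 50 kb was 0.4 (n = 3 per group). RUNX1 and ERG together held 7, 12 and 1 of the 121, 810 and 67 peaks on chromosome 21 in clones 1, 2 and 3.

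NFE2, the large subunit of the erythroid and megakaryocyte bZIP dimer (8.9 kb; chromosome 12, 54292111 to 54301015), had a region inside the gene shared by clones 2 and 3. It lay at 54297922 to 54298153 and had folds of 4.75 and 3.56 from 15 and 16 reads over 2.37 and 3.77. The gene-end peak at 54300947 to 54301090 was in clone 2 alone (fold 3.99, −log10 q 3.38). A region 3.39 kb beyond that end was shared by clones 1 and 2, with folds of 3.17 and 5.66 and −log10 q of 4.97 and 13.92.

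The remaining shared regions around NFE2 lay at other genes. The one in all 3 clones was 11.4 kb away at the facing ends of CBX5, a heterochromatin protein gene, and HNRNPA1, a splicing factor gene, with folds of 2.51, 5.39 and 2.21. The pile-up there was 46, 82 and 50 reads over 17.7, 14.4 and 22.1. Beside it, a region near CBX5, SCAT2 and HNRNPA1 was listed in clones 1 and 2 with folds of 2.59 and 4.02. COPZ1, a coatomer gene, had a region in clones 1 and 2 (folds 2.87 and 2.73). Within 50 kb, clones 1, 2 and 3 had 5, 6 and 2 peaks (mean 4.33 ± 2.08, SD, n = 3; exact permutation p = 0.1). Of 13 neighbouring protein-coding genes of the 10, 5 were themselves called in at least 2 clones, against 23.3% of all protein-coding genes. They were NFIX, TRMT1, CBX5, HNRNPA1 and COPZ1, and no test was made.

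Merged over the lists, 62 regions lay within 50 kb of the 10 genes, of which 19 (30.6%) were listed in 2 or more clones, against 20.9% of all 32822 regions. In all 3 clones there were 5 of the 62, against 3.82% of all regions. Of these 5, those near TRMT1, inside IER2 and at CBX5 and HNRNPA1 lay outside the 10 genes. Of the 19, 2 were at a gene end, 6 inside a gene and 11 outside. LYL1 (5 of its 12 regions) and NFE2 (5 of its 7) supplied the most, and no other gene had more than 2. At LYL1 3 of these 5, and at NFE2 4, lay outside the gene, where other genes are close. Clone 2 alone supplied 32 of the 62 regions, clone 1 alone 11 and clone 3 alone 0. Peaks overlapping the gene itself were found in 2 or more clones at 6 of 10 genes (RUNX1, ETV6, FLI1, LYL1, NFE2 and ERG), against 24.6% of all genes. These 6 include the 4 longest genes of the group (ERG, RUNX1, ETV6 and FLI1) and also the short LYL1 and NFE2, and the part of gene length in this count was not tested. The shared counts rest on clones 1 and 2: without clone 1, 7 regions and 3 genes with inside peaks were shared, and without clone 2, 5 and 2. A minimum −log10 q of 5 reduced them to 5 and 3. The matching shares over all regions and genes are not given for these rules, so the reduced counts have no background beside them.

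**Figure D4:**
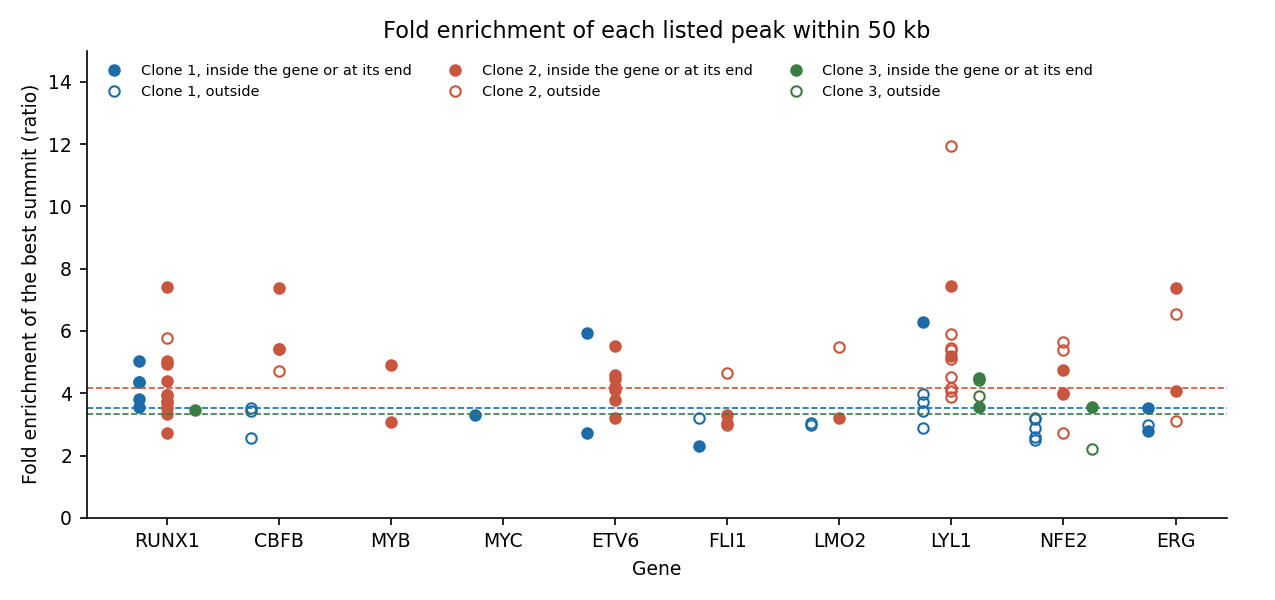
Fold enrichment (vertical axis, ratio) of each listed peak within 50 kb of the 10 genes in clones 1, 2 and 3, filled where the peak is inside the gene or at its end; dashed lines are the medians of each clone's whole list (3.54, 4.16 and 3.35). The highest point, 11.94, is a clone 2 peak outside LYL1, and the clone 1 points lie mostly below their line.

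The folds of these peaks lay below the list median more often than above it in clone 1, and above it more often in clones 2 and 3, with no test made. The median fold over the peaks at the 10 genes was 3.27, 4.49 and 3.56 in clones 1, 2 and 3, and 9 of 28, 29 of 52 and 6 of 7 peaks were above the median of their list. A −log10 q of 5 or more was reached by 32.1, 50 and 28.6% of them, against 44.3, 45.3 and 24.4% of the whole lists. Implied pile-ups ran from 11 to 52, 9 to 82 and 16 to 50 reads in clones 1, 2 and 3. Peaks were 240, 104 and 186 bp wide at the median, and at ETV6 2 adjacent clone 2 peaks overlapped a single clone 1 peak.

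Partner genes were counted by the same gene-end rule in 6 lists of 91 different genes, of which 34 (37.4%) were called, against 23.3% of all genes. Partners and relatives of RUNX1 and CBFB had 7 of 16, the related RUNX3 among them. TLE3, a Groucho corepressor (folds 2.94, 4.14 and 2.57), and PRMT1, an arginine methyltransferase (3.54, 3.36 and 2.08), had peaks in all 3 clones. MYB partners and relatives had 5 of 10, none in all 3 clones. The MYC network had 9 of 18, with the MAX-binding repressors MXD3 (3.81, 2.99 and 3.41) and MXD4 (2.89, 2.21 and 1.79) in all 3 clones. RUVBL2, an ATPase cofactor of MYC (3.83, 3.91 and 2.52), also had peaks in all 3, at a site shared with GYS1. The other ETS genes had 8 of 22, the LMO2 complex 3 of 17 and the NFE2 relatives 2 of 9, none of them in all 3 clones. The median number of clones with a peak was 1 over the 91 genes and 0 over all genes. No test was made of these lists, and no difference from other genes is claimed.

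**Figure D5:**
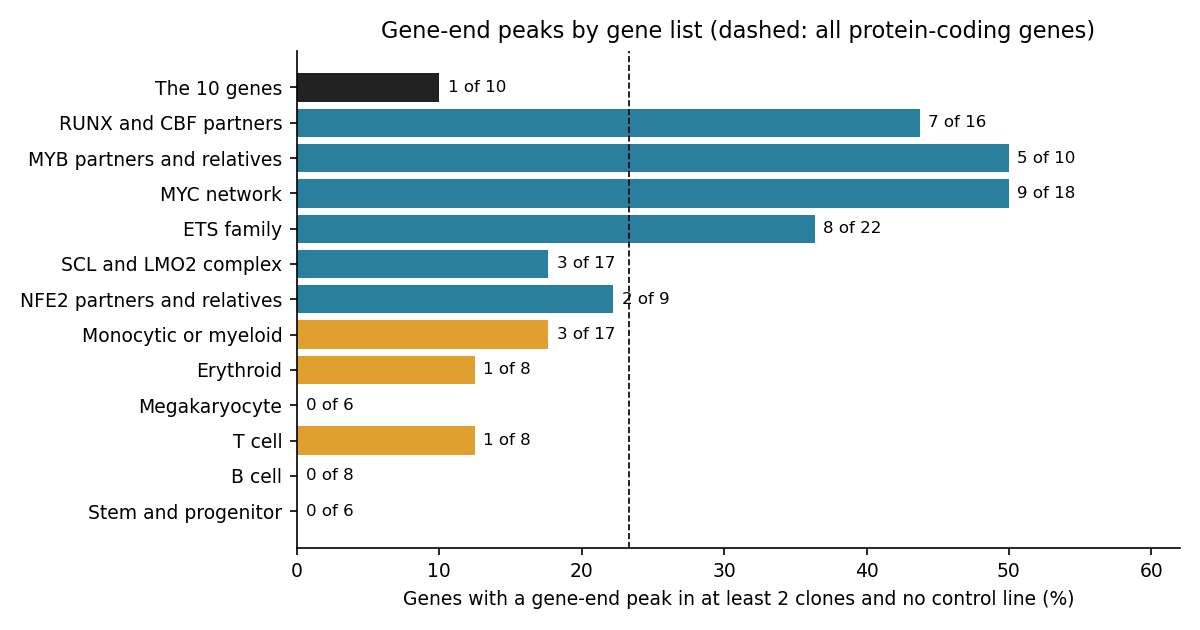
Percentage of genes called by the gene-end rule (horizontal axis) for the 10 genes, 6 partner lists (blue) and 6 marker lists (orange), with the count beside each bar; the dashed line is 23.3%, the share of all protein-coding genes. The 10 genes stand at 1 of 10 and the MYC network at 9 of 18.

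The labelled cell type was checked by its marker genes. Of 17 monocytic or myeloid markers, 3 (17.6%, beside 23.3% of all genes) were called, namely ITGAM, FCGR2A and CD68, the last in all 3 clones at a site shared with EIF4A1. Another 7 had no gene-end peak in any clone. In clones 1, 2 and 3 the counts were 5, 8 and 1. Of 8 erythroid markers KLF1 was called, in all 3 clones with folds of 5.68, 5.06 and 2.71, and the other 7 had none. Of 8 T cell markers CD3E was called. Markers of megakaryocytes (6 genes), B cells (8) and stem and progenitor cells (6) had none called. RNA was not measured in these libraries.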

How the data were processed

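The 10 genes, the partner and marker lists and the tests were chosen with earlier results of these data known. FastQC, Bowtie2, Picard and MACS2, on build GRCh38, are named in the submitters' processing notes; their versions, their settings and any shift of reads were not given in the sources used here. The authors deposited 1 peak list per library, so peaks were called per library. Each line gives the authors' fold enrichment, a ratio over local background, and their −log10 p and −log10 q. The deposited score equals 10 times the −log10 q with decimals dropped, and went unused.

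Lines sharing an interval were counted as 1 peak with its best summit by −log10 q. Counting was limited to chromosomes 1-22, X and Y (13, 4 and 2 peaks for control lines 1, 2 and 3 and 14262, 24981 and 2188 for clones 1, 2 and 3). Intervals of all lists overlapping by 1 bp were merged into regions. Gene positions came from RefSeq (GRCh38.p14), whose gene table gave no strand, so both gene ends were used; strand came from the promoter table where it held the gene. Pile-up and background were solved from the fold, taken as (pile-up + 1)/(background + 1), and the Poisson tail p, and the pile-up fell within 0.00017 of a whole read at every peak near the 10 genes. On 500 peaks simulated from the same formula the solver recovered 100%. On 200 genes with peaks planted inside the window, the gene-end call recovered 100%. Both check the arithmetic and not how well the formula or window suits these lists.

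Single values per library were compared with an exact two-sided permutation test of the difference of means. Nothing beyond the clones being independent says that lines came from separate cultures, so p-values refer to these libraries only. Each p is the share of group assignments whose difference of means was as large or larger. A gene was called when at least 2 of 3 clones and no control line had a gene-end peak, and was set beside the share of all protein-coding genes called. All 10 genes are described; of the partner lists, genes with a peak in all 3 clones are named, as are neighbours with a peak at their end. Alternatives changed the −log10 q or fold minimum, list length, windows, summit rule, overlap, number of clones and libraries. A call by promoter window was chosen after seeing the data. Python 3.11.15, numpy 2.4.6, scipy 1.17.1 and pandas 2.3.3 were used.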

Additional observations from a re-analysis of the deposited data

How the results depend on the processing

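LYL1 was called under all 13 alternatives of filter, window, list length or library, and by promoter window, an alternative chosen after seeing the data. It had gene-end peaks in all 3 clones and in no control line. Leaving out a library, requiring all 3 clones or widening the window could therefore not undo the call. The number of the 10 genes called changed in 1 alternative, a gene-end window of 2500 bp, which gave 2 with LMO2. Over all protein-coding genes, 4652 became 2189 with a −log10 q of 5 or more, 132 with a fold of 5 or more, 978 with equally long clone lists, 1079 in all 3 clones and 1124 to 4652 with a library left out. Genes of the 10 with more peaks within 50 kb in every clone than in any control line were 3, 1 with the −log10 q minimum, 0 with the fold minimum and 3 to 8 with a library left out. Genes with an inside peak in at least 2 clones were 6, 3 with either minimum, 2 with equal lists and 2 to 6 with a library left out. Shared regions were 19, 5 with the −log10 q minimum, 2 with the fold minimum, 5 in all 3 clones and 5 to 17 with a clone left out. These alternatives keep fewer peaks or fewer clones by construction. For counts within 50 kb, inside genes and of shared regions, the shares over all genes or regions are not given under the alternatives. Of 120 alternative values of single genes within 50 kb, 108 kept their direction, 12 became 0 and 0 reversed. No control line had a peak near these genes in any alternative, so no value could reverse. Peaks per library gave 2.97 to 3.50 on the log10 scale with a library left out, with an exact permutation p of 0.1. Pairing libraries by replicate number (replicate block) gave 3.19 and an exact permutation p of 0.25, the smallest that 3 pairs allow; the numbers in the titles do not say that lines were paired. Depth is unknown, so a site without a listed peak is not shown to be closed.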
